A study of Mus musculus with 10 samples.

Results

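The genes described here encode 9 transient receptor potential (TRP) channels linked to the sensing of temperature and irritants. They are *Trpv1*, *Trpv2*, *Trpv4*, *Trpa1*, *Trpm8*, *Trpm2*, *Trpm3*, *Trpc1* and *Trpc5*, taken by symbol, and each matched 1 of the 55414 Ensembl genes listed in every library. RNA of dorsal root ganglia (DRG) was measured by bulk RNA-sequencing in 10 mouse embryos at E18.5. The 5 control embryos carried *Dach1* flox/flox and *Wnt1* +/+, with no Cre. The 5 *WD1* cKO embryos carried *Wnt1*Cre/+ and *Dach1* flox/flox. The *Wnt1* regulatory sequence directs Cre to the neural crest, the source of both the neurons and the glia of the DRG. As control embryos had no Cre, effects of Cre itself and of the loss of *Dach1* cannot be told apart. The genotypes written in the labels are swapped relative to the sample titles, which were followed here. The controls are described as littermates, but which embryos shared a litter is not given in the sources used here. Depth, as total counts, lay between 20465132 and 27528784 for control libraries and between 19757596 and 34796562 for *WD1* cKO libraries. The comparison asks whether early loss of *Dach1*, a transcription cofactor, came with other levels of these channels.

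TRP channels are cation channels of the cell membrane, and several of them open in response to heat, cold or pungent chemicals. Several sit in the endings of the thermoreceptors and nociceptors of the DRG. There their current depolarises the ending and starts the signal of warmth, cold, burning or itch. Inflammatory mediators act through receptors coupled to phospholipase C and kinases, which lower the stimulus needed to open channels such as TRPV1.

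*Dach1* (ENSMUSG00000055639, chromosome 14), the deleted gene, was read first because it checks the titles. Levels are given as CPM, the counts of a gene in a library scaled by edgeR's TMM method to 1000000 counts. *Dach1* was at 35.1, 38.5, 41.6, 37.1 and 37.4 CPM in control embryos 1 to 5 and at 19.1, 20.8, 19.5, 20.3 and 20.4 CPM in *WD1* cKO embryos 1 to 5. Every *WD1* cKO library lay below every control library. The log2 fold change was -0.92 (SE 0.0504, 95% interval -1.03 to -0.81, edgeR quasi-likelihood test, adjusted p = 5.48e-06). The titles therefore matched the level of the deleted gene. In the paper's line a single exon of *Dach1* is floxed, and counts were made per gene. The level left in *WD1* cKO embryos is therefore not a measure of intact *Dach1* transcript. In bulk DRG, fewer cells of a type and less RNA per cell cannot be told apart, here and in every result that follows.

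Some libraries stood apart from others of the same genotype. The 4 libraries numbered 4 and 5 in the titles differed from the 6 numbered 1 to 3 in both groups. Summed levels of 5 blood genes were 1176.5, 775.5, 485.4, 66.1 and 74.7 CPM in control embryos 1 to 5 and 494.2, 329.4, 236.6, 101.3 and 80.8 CPM in *WD1* cKO embryos 1 to 5. The sum was thus lower in all 4 libraries numbered 4 and 5 than in the other 6, as were 4 of the 5 genes. Of all genes tested, 5.07% had this order. *Hba-a1*, a globin gene and the most abundant of the list, ranged from 28.0 to 32.9 CPM in these 4 libraries and from 73.3 to 543.7 CPM in the other 6. Of 5 endothelial genes, 1 had this order, *Cdh5*, a junction protein of vessel walls and the most abundant, at 76.6 to 95.6 CPM in the 4 libraries and 99.8 to 119.1 CPM in the other 6. Each of the other 4 endothelial genes overlapped between the sets, so the order of the summed list, at 222.7 to 233.5 and 243.0 to 277.5 CPM, does not describe endothelial genes in general. What the numbers stand for is not given in the sources used here, and the split was chosen after the values were seen, so it is given without a p.

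Control embryo 3 held more RNA of spinal cord genes than any other library. Their sum was 13.9 CPM there, against 0.126 to 1.19 CPM in the other 9 libraries. *Slc6a5*, a glycine transporter of spinal neurons, accounted for 4.66 CPM of it. Each of the 6 genes of that list had too few counts to be tested.

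Markers of the labelled tissue were present. Of 7 pan-neuronal genes and 6 glial genes, none was at 0 in all libraries, and *Tubb3*, a neuronal tubulin, stood at 1923.8 ± 56.8 CPM in control (SD, n = 5). The DRG dissections also held connective tissue, with *Col3a1* at 1762.6 ± 258.6 CPM in control (SD, n = 5), and small amounts of macrophage and muscle RNA. *Mrc1*, a macrophage receptor, was at 24.1 ± 4.02 CPM and *Acta1*, skeletal actin, at 36.6 ± 16.7 CPM in control (SD, n = 5). Of the keratinocyte list, *Krt10*, a keratin, was at 5.34 ± 0.424 CPM in control (SD, n = 5). The other genes of that list had control means of 0.244 to 0.611 CPM. The TRP levels below are therefore those of a mixture of cell types.

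Among the TRP channels, levels divided by exon length fell into an abundant and a scarce set. Per kilobase of exon, *Trpv1* was the most abundant in control embryos, at 19.8 ± 3.10 CPM per kb (SD, n = 5), and made up 34.2% of the sum over the 9 channels. *Trpv2* followed at 13.7 ± 0.595 CPM per kb and *Trpm8* at 8.92 ± 3.43 CPM per kb (SD, n = 5). *Trpm3*, at 6.10 ± 0.537 CPM per kb, and *Trpc1*, at 5.51 ± 0.446 CPM per kb, came next (SD, n = 5). *Trpm2* was at 2.84 ± 0.277 CPM per kb (SD, n = 5). By this measure *Trpv1* and *Trpm8* were thus both among the top 3, and *Trpa1* was near the bottom. *Trpv4* was at 0.600 ± 0.0460, *Trpa1* at 0.206 ± 0.103 and *Trpc5* at 0.143 ± 0.0443 CPM per kb (SD, n = 5). Control ranges of neighbours in this order overlapped for *Trpm8* and *Trpm3*, for *Trpm3* and *Trpc1*, and for *Trpa1* and *Trpc5*, so these pairs were not separated by their spread. The exon length is that of all annotated exons joined, so a gene with many long alternative exons, such as *Trpm3* with 24.4 kb, comes out lower than by its main transcript. Before division by length, *Trpm3* had the highest control mean of the 9, at 149.0 CPM, against 72.8 CPM for *Trpv1*. The order above, its top included, thus depends on the exon lengths used.

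**Figure D1:**
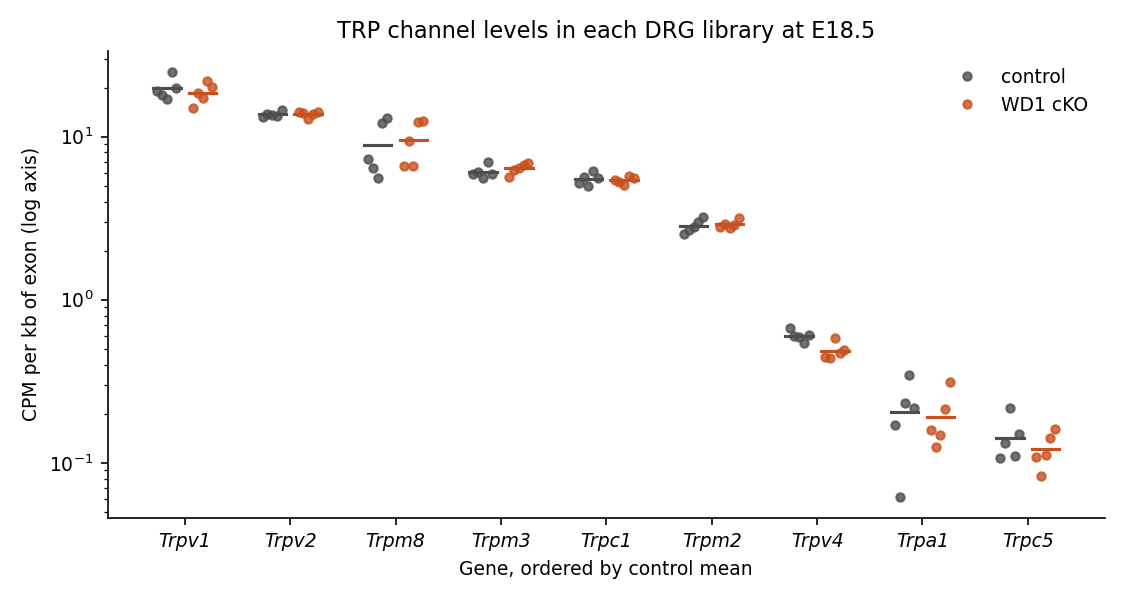
Level of each TRP channel in every library, in CPM per kb of exon on a log axis. Points are libraries of control and *WD1* cKO embryos and bars are the group means of 5. *Trpv1* is highest and *Trpc5* lowest in the control means, and the points of the genotypes overlap for every gene shown.

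Between the genotypes, no TRP channel passed the test across all genes. The groups overlapped for all 9 channels, whereas they did not overlap for 1.06% of the 17490 genes tested. All 9 passed the filter on low counts, and 0 had an adjusted p under 0.05 in edgeR's quasi-likelihood test, where 7 genes did (0.0400% of those tested). At an unadjusted p under 0.05, edgeR counted 1 of the 9, *Trpv4*, against 4.50% of all genes tested, and DESeq2's Wald test counted 0 of 9. A further cut-off, unadjusted p under 0.005 and a log2 fold change beyond 0.15 either way, was passed by 0 of 9, and by 0.383% of all genes tested. The median log2 fold change was -0.03 over the 9 channels and 0.00 over all genes tested, with 5 channels below 0 and 4 above. These counts do not set the channels apart from the other genes tested.

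**Figure D2:**
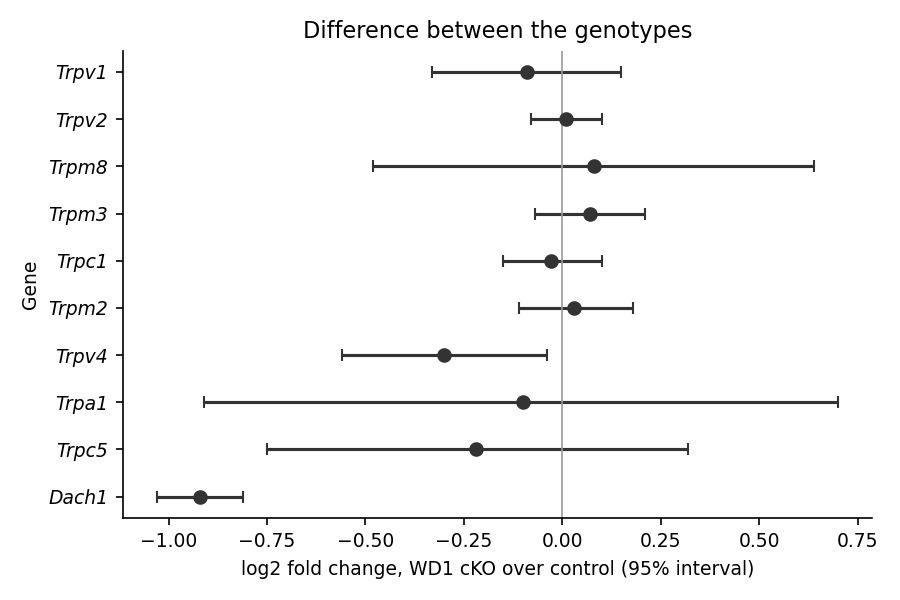
Log2 fold change of *WD1* cKO over control for each TRP channel, ordered by level in control, with *Dach1* below. Points are edgeR estimates from 5 against 5 libraries and bars are 95% intervals. The intervals of 8 of the 9 channels include 0, that of *Trpv4* runs from -0.56 to -0.04, and that of *Dach1* from -1.03 to -0.81.

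Heat is sensed in mouse mainly through TRPV1, TRPM3 and TRPA1, with TRPM2 and TRPV2 as further heat-gated channels. *Trpv1* (ENSMUSG00000005952, chromosome 11), the receptor of capsaicin and noxious heat, was at 70.2, 66.0, 62.4, 91.8 and 73.4 CPM in control embryos 1 to 5. In *WD1* cKO embryos 1 to 5 it was at 55.4, 68.4, 63.3, 80.8 and 74.7 CPM. Both groups were highest in embryo 4 and next highest in embryo 5, and their values overlapped widely. The log2 fold change was -0.09 (SE 0.112, 95% interval -0.33 to 0.15, edgeR, adjusted p = 1.00), and an exact two-sided permutation test gave p = 0.540. A fall of *Trpv1* below 0.793 of the control level, or a rise above 1.11 of it, lay outside that interval. Without control embryo 4 the estimate was 0.01, so its sign rested on 1 library.

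*Trpm3* (ENSMUSG00000052387, chromosome 19), a heat channel also opened by the steroid pregnenolone sulfate, was at 144.4, 148.3, 136.4, 171.2 and 144.9 CPM in control embryos 1 to 5. In *WD1* cKO embryos 1 to 5 it was at 139.0, 152.3, 157.9, 164.5 and 168.1 CPM. Control embryo 4 was the highest of all 10, and 4 of 5 *WD1* cKO libraries lay above the control median. For *Trpm3*, the log2 fold change was 0.07 (95% interval -0.07 to 0.21, edgeR, adjusted p = 1.00, n = 5 and 5). An antisense gene, Gm27151, overlaps its exons, but had 289 counts over all 10 libraries, against 2898 or more for *Trpm3* in each.

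*Trpm2* (ENSMUSG00000009292, chromosome 10), a warmth-sensitive channel opened by ADP-ribose and oxidative stress, was at 31.4, 33.5, 34.6, 37.4 and 40.2 CPM in control embryos 1 to 5. In *WD1* cKO embryos 1 to 5 it was at 35.0, 36.6, 34.4, 35.8 and 39.6 CPM. Embryo 5 was the highest in both groups, and the *WD1* cKO values fell within the control range. Its log2 fold change was 0.03 (95% interval -0.11 to 0.18, edgeR, adjusted p = 1.00, n = 5 and 5), with 0.09 in embryos 1 to 3 alone and -0.04 in embryos 4 and 5 alone.

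*Trpv2* (ENSMUSG00000018507, chromosome 11), opened by intense heat in cultured cells and found mostly in medium and large myelinated neurons, was the steadiest of the channels. Its levels were 59.0, 62.0, 60.6, 59.7 and 65.7 CPM in control embryos 1 to 5 and 63.5, 63.0, 57.5, 62.1 and 63.7 CPM in *WD1* cKO embryos 1 to 5. The highest of the 10 libraries was 1.14 times the lowest. *WD1* cKO embryo 3 lay below the other libraries, and the groups overlapped. Between genotypes, *Trpv2* had a log2 fold change of 0.01 (95% interval -0.08 to 0.10, edgeR, adjusted p = 1.00, n = 5 and 5), the narrowest interval among the 9.

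Cold is sensed mainly through TRPM8, the receptor of menthol, with TRPC5 as a further cold-sensitive channel. *Trpm8* (ENSMUSG00000036251, chromosome 1) was at 34.7, 30.6, 26.5, 57.4 and 61.9 CPM in control embryos 1 to 5. In *WD1* cKO embryos 1 to 5 it was at 31.4, 44.5, 31.3, 58.0 and 59.1 CPM. The 4 libraries numbered 4 and 5 were the highest, in both genotypes, and lay close together. The remaining 6 were lower, with *WD1* cKO embryo 2 between them and the high libraries.

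The log2 fold change of *Trpm8* between genotypes was 0.08 (SE 0.258, 95% interval -0.48 to 0.64, edgeR, adjusted p = 1.00), and an exact two-sided permutation test gave p = 0.746. With the numbers fitted apart, a comparison chosen after seeing the data, it was 0.22 (95% interval -0.11 to 0.56) over embryos 1 to 3 and -0.03 (95% interval -0.16 to 0.10) over embryos 4 and 5. Whether these estimates differ was not tested. With a term for numbers 4 and 5 beside the genotype, the SE was 0.102 and the log2 fold change 0.12.

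*Trpc5* (ENSMUSG00000041710, chromosome X), which takes part in cold sensing in the skin and teeth, had 11 to 28 counts per library. It was at 0.537, 0.662, 1.08, 0.552 and 0.748 CPM in control embryos 1 to 5 and at 0.548, 0.418, 0.563, 0.711 and 0.808 CPM in *WD1* cKO embryos 1 to 5. Control embryo 3, the library with spinal cord RNA, was the highest of the 10, and the groups overlapped. The log2 fold change was -0.22 (95% interval -0.75 to 0.32, edgeR, adjusted p = 1.00, n = 5 and 5). Without control embryo 3 it was -0.03, and the part of spinal cord RNA in the difference was not tested. In embryos 1 to 3 alone it was -0.57 (95% interval -1.32 to 0.18) and in embryos 4 and 5 alone 0.25 (95% interval -0.51 to 1.01), so its direction turned across that split, and whether these estimates differ was not tested.

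Irritants such as mustard oil and acrolein act on TRPA1. *Trpa1* (ENSMUSG00000032769, chromosome 1) had 6 to 46 counts per library. It was at 0.732, 0.265, 0.989, 1.47 and 0.924 CPM in control embryos 1 to 5 and at 0.674, 0.532, 0.629, 0.915 and 1.33 CPM in *WD1* cKO embryos 1 to 5. Control embryo 2 was the lowest and control embryo 4 the highest, so control embryos alone spanned the whole range. The log2 fold change was -0.10 (SE 0.369, 95% interval -0.91 to 0.70, edgeR, adjusted p = 1.00), and an exact two-sided permutation test gave p = 0.992. A fall to 0.533 or a rise to 1.62 of the control level still lay inside the interval. Without control embryo 4 the estimate was 0.19.

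Osmotic and mechanical stimuli are the field of TRPV4, a channel also opened by moderate warmth, and TRPC1 takes part in touch responses of DRG neurons. *Trpv4* (ENSMUSG00000014158, chromosome 5) had 38 to 72 counts per library. It was at 2.73, 2.43, 2.40, 2.21 and 2.46 CPM in control embryos 1 to 5 and at 1.81, 1.79, 2.39, 1.93 and 1.99 CPM in *WD1* cKO embryos 1 to 5. Of the *WD1* cKO libraries, 4 of 5 lay below every control library, and the exception, embryo 3, lay within the control range.

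For *Trpv4*, the log2 fold change was -0.30 (SE 0.120, 95% interval -0.56 to -0.04, edgeR, unadjusted p = 0.0285, adjusted p = 1.00). An exact two-sided permutation test gave p = 0.0159, where 0.00794 is the smallest that 5 against 5 libraries allow. The difference did not pass adjustment over all genes tested. Scaled to pan-neuronal genes, the interval ran from -0.56 to 0.01. It ran from -0.60 to -0.01 with the replicate number as a block. With a term for numbers 4 and 5, chosen after seeing the data, it ran from -0.56 to -0.03. In embryos 1 to 3 alone the log2 fold change was -0.33 (95% interval -0.74 to 0.08) and in embryos 4 and 5 alone -0.25 (95% interval -0.69 to 0.20), of the same direction but with 0 inside both intervals.

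*Trpc1* (ENSMUSG00000032839, chromosome 9), a subunit of store-operated and mechanically gated channels, was at 41.8, 45.3, 40.1, 49.4 and 44.5 CPM in control embryos 1 to 5. In *WD1* cKO embryos 1 to 5 it was at 43.6, 42.3, 40.6, 46.0 and 44.6 CPM. All *WD1* cKO values lay inside the control range. Its log2 fold change was -0.03 (95% interval -0.15 to 0.10, edgeR, adjusted p = 1.00, n = 5 and 5).

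**Figure D3:**
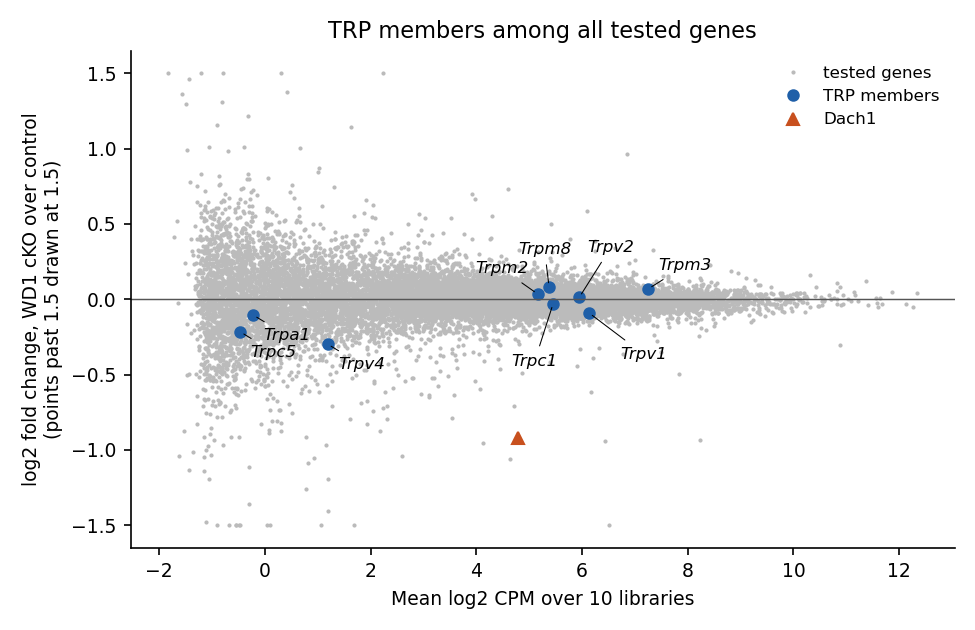
Log2 fold change of *WD1* cKO over control against mean log2 CPM for the 17490 genes tested in grey, with the 9 TRP channels in blue and *Dach1* as a triangle. Fold changes past 1.5 are drawn at 1.5. *Trpv4*, *Trpa1* and *Trpc5* lie among genes of low level, where the grey points spread widely, and the other 6 channels lie near 0.

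*Trpm8* and *Trpv1* were the channels whose 4 libraries numbered 4 and 5 all lay above the other 6. Of all genes tested, 6.11% had this order and 5.07% the reverse, so a library pattern of this kind was common. *Trpv1* ranged from 73.4 to 91.8 CPM in the 4 libraries and from 55.4 to 70.2 CPM in the other 6, and *Trpm8* from 57.4 to 61.9 CPM and from 26.5 to 44.5 CPM. *Trpv1* thus had a gap between the sets that was small beside its spread, and *Trpm8* a wide one. Among nociceptor genes, named here after their values were seen, *Calca*, *Tac1* and *Scn11a* had the same order and *Runx1* the reverse. *Runx1*, a transcription factor of nociceptor diversification, ranged from 86.9 to 105.5 CPM in the 4 libraries and from 111.4 to 118.5 CPM in the other 6. *Calca*, the precursor of the neuropeptide CGRP, ranged from 366.4 to 408.0 CPM and from 246.4 to 318.6 CPM. Summed over the 10 nociceptor genes, the sets overlapped, at 4605.5 to 5136.1 and 4255.8 to 4633.4 CPM, with *Scn10a*, a sodium channel, the most abundant. The part of blood content, cell composition or any batch in these orders was not tested.

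**Figure D4:**
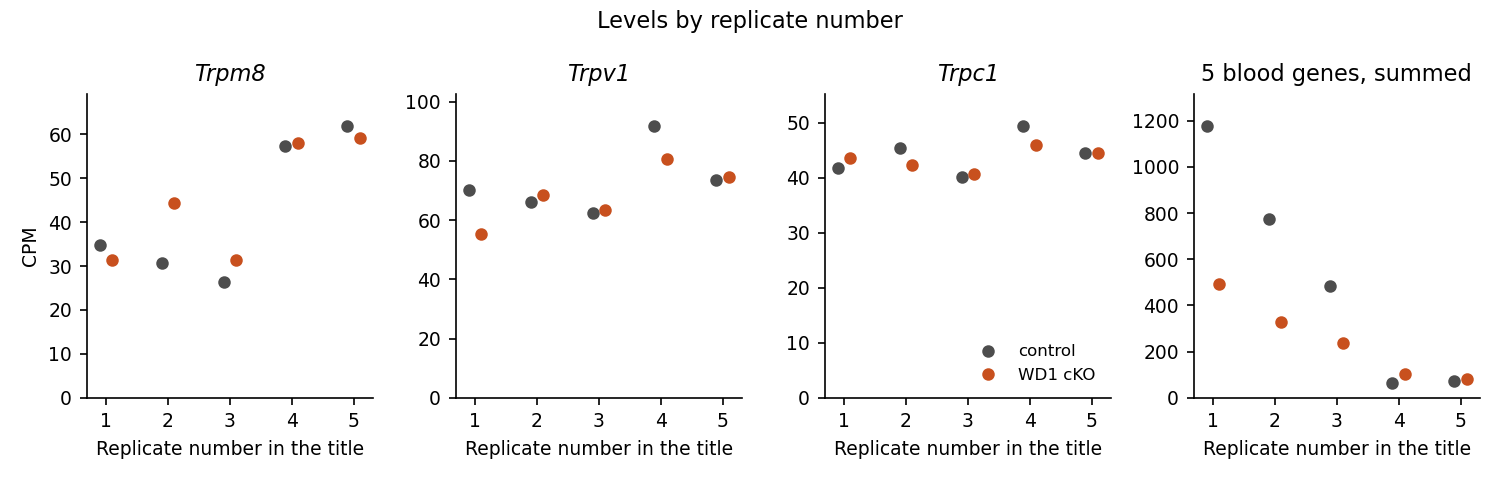
Level in CPM of *Trpm8*, *Trpv1* and *Trpc1* and of 5 blood genes summed, in each library, by the replicate number in its title and coloured by genotype. *Trpm8* lies at 57.4 CPM or above in the 4 libraries numbered 4 and 5 and at 44.5 CPM or below in the other 6, while blood genes lie at 101.3 CPM or below and 236.6 CPM or above.

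The promoters of *Trpm8* and *Trpv1* are shown because these channels were highest in the same 4 libraries, and that of *Trpc1*, whose level varied less, as a contrast. RefSeq's promoter table, on GRCm38.p6, held 8 of the 9 channels, and *Trpa1* was the other. Each line gives the 100 bases that end just before the gene's start, in the direction of the gene, with the letters of a searched motif in capitals. The window of *Trpm8* is chr1:88306635-88306734 (+), that of *Trpv1* is chr11:73234049-73234148 (+) and that of *Trpc1* is chr9:95750349-95750448 (-).
Trpm8: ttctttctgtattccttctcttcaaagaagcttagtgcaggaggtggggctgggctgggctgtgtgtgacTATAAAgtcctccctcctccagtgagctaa
Trpv1: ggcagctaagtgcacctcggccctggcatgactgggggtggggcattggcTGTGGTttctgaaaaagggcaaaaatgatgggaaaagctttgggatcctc
Trpc1: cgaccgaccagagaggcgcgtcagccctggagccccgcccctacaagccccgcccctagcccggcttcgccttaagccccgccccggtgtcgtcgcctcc

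The searched motifs were TATAAA, the TATA box, and TGTGGT, the core that RUNX factors bind, on both strands of the 250 bases before each start. In *Trpm8*, TATAAA begins 30 bases before the start, and in *Trpv1*, TGTGGT begins 50 bases before it. TATAAA also occurred in *Trpm2* and TGTGGT in an entry of *Trpm3*. TATAAA occurred in 12.4% and TGTGGT in 14.0% of the 32851 promoters in the table. The same 250 bases held 1 CpG in *Trpm8*, 2 in *Trpv1* and 17 in *Trpc1*, against a median of 6 over all promoters. The 3 entries of *Trpv2*, which was not highest in those 4 libraries, held 2, 2 and 5. A CpG-poor start is a common feature, with 29.0% of promoters holding 2 or fewer. These matches describe the sequence and say nothing of whether a factor binds it.

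The genes whose log2 CPM followed these channels most closely over the 10 libraries were sought among genes with a mean of at least 10 CPM. For *Trpm8* they were *Slc44a2* (r = 0.981, rho = 0.855), *Slc24a2* (r = 0.979, rho = 0.939) and *Tmem50b* (r = 0.976, rho = 0.964). All 3 were also highest in the 4 libraries numbered 4 and 5, and over the 6 libraries numbered 1 to 3 r was 0.952, 0.861 and 0.888. For *Trpv1* they were *Ctsd* (r = 0.936, rho = 0.915), *Grina* (r = 0.931, rho = 0.903) and *Mical1* (r = 0.917, rho = 0.915). These 3 too were highest in the 4 libraries numbered 4 and 5, and over the other 6 r was 0.836, 0.901 and 0.653. For *Trpa1* they were *Cisd3* (r = 0.917, rho = 0.927), *Pdk2* (r = 0.915, rho = 0.879) and *Echs1* (r = 0.913, rho = 0.855), beside counts of *Trpa1* as low as 6. Of these, *Cisd3* was highest in the same 4 libraries, and over the other 6 r was 0.797, 0.825 and 0.935. Leaving out the 2 libraries farthest from the median of the channel, the lowest of the 9 values of r was 0.784. These are the highest of 10773 or 10774 values of r per channel and carry no p.

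The other TRP genes were described next to the 9. Of 19, 14 had enough counts to be tested, and 0 had an adjusted p under 0.05 in edgeR or in DESeq2's Wald test, nor an unadjusted p under 0.05 in either. Over all genes tested, 0.0400% and 4.50% did in edgeR. The median log2 fold change of the 14 was -0.04, with 9 below 0 and 5 above. *Trpm7*, a magnesium channel with a kinase domain, was the most abundant in CPM, at 101.2 ± 2.86 in control and 105.5 ± 3.06 in *WD1* cKO (SD, n = 5), with a log2 fold change of 0.06 (95% interval -0.01 to 0.13). *Mcoln1*, a lysosomal channel, was next at 75.9 ± 2.67 and 72.9 ± 1.88 CPM (SD, n = 5), with a log2 fold change of -0.06. *Pkd2*, the polycystin of primary cilia, and *Trpm4*, opened by calcium, had log2 fold changes of 0.08 and 0.05. In 2 of the 14, the 4 libraries numbered 4 and 5 all lay above the other 6, beside 6.11% of all genes tested. *Trpc6*, named after its values were seen, was among them, at 4.01 CPM or above in the 4 libraries.

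Of 28 genes for receptors and enzymes that sensitise TRP channels, 27 had enough counts to be tested. Adjusted p was under 0.05 for 0 of 27 in edgeR and in DESeq2's Wald test, and 1 of 27 had an unadjusted p under 0.05 in each, beside 4.50% of all genes tested in edgeR. The median over the 27 was -0.01, with 17 below 0 and 10 above.

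*Pirt*, a membrane protein that raises TRPV1 and TRPM8 currents, was among the most abundant of these regulators. *Pirt* was at 1039.6 ± 43.3 CPM in control and 1021.1 ± 24.0 CPM in *WD1* cKO (SD, n = 5). *Prkca*, a protein kinase C, and *Gnaq*, the G protein alpha subunit upstream of phospholipase C, had log2 fold changes of 0.01 and -0.01. Libraries numbered 4 and 5 lay above the other 6 in 6 of the 27, a count to be read beside the 6.11% of all genes tested.

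Other channels and partners of temperature sensing were 10 in number, all tested. Of these, 0 had an adjusted p under 0.05 and 0 an unadjusted p under 0.05, in edgeR and in DESeq2's Wald test. Over all genes tested, 0.0400% and 4.50% did in edgeR. The median log2 fold change of the 10 was -0.02, with 6 below 0 and 4 above. *Scn10a*, the sodium channel that keeps nociceptors firing in the cold, was at 1496.4 ± 144.1 CPM in control and 1483.3 ± 58.4 CPM in *WD1* cKO (SD, n = 5), with a log2 fold change of -0.01 (95% interval -0.15 to 0.12). *Kcna2* and *Kcna1*, potassium channels that act as a brake on cold responses, had log2 fold changes of -0.08 (95% interval -0.21 to 0.04) and 0.06 (95% interval -0.15 to 0.27). *Stim1*, a sensor of stored calcium, had a log2 fold change of -0.08 (95% interval -0.16 to 0.00), and *Kcnk10*, a heat-sensitive background potassium channel, one of 0.00 (95% interval -0.10 to 0.11).

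Markers of other cell types were compared between the genotypes in the same fit. Of 53 marker genes tested, 0 had an adjusted p under 0.05 and 3 had an unadjusted p under 0.05 in edgeR as in DESeq2's Wald test, where 4.50% of all genes tested did in edgeR. *Krt10* was among the 3, as was *Lum*, a collagen-binding proteoglycan named after its value was seen. The widest median log2 fold changes were those of blood, at -0.94 over 5 genes, and muscle, at -0.65 over 5 genes. *Hba-a1* had a log2 fold change of -1.57 (95% interval -3.22 to 0.07) and *Acta1* one of -0.49 (95% interval -1.14 to 0.16). Both rested in part on single libraries, as *Hba-a1* was at -1.01 without control embryo 1 and *Acta1* at -0.26 without control embryo 5. *Hba-a1* was at -1.74 in embryos 1 to 3 alone and at -0.09 in embryos 4 and 5 alone. Glial genes had a median of 0.05, pan-neuronal genes -0.04, nociceptor genes -0.02, macrophage genes -0.03, connective tissue genes 0.09, endothelial genes 0.02 and the 2 keratinocyte genes tested -0.09. *Krt10* had the groups apart, as did 1.06% of all genes tested, with a log2 fold change of 0.25 (95% interval 0.08 to 0.42, edgeR, adjusted p = 1.00). The other keratinocyte gene tested had a log2 fold change of -0.44 (95% interval -1.01 to 0.13). What part these tissues had in the TRP levels was not tested.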

How the data were processed

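The authors prepared stranded mRNA libraries, aligned reads with STAR 2.7.8a to GRCm39 and counted them per gene with featureCounts 2.0.1, per the submitters' processing notes, and deposited these counts as they were, not normalized. The strand setting of the counting is not given in the sources used here. The fit used edgeR 4.0.16 under R 4.3.3. It covered the 17490 genes that reached 10 counts in 5 or more libraries, with TMM scaling, and compared genotypes with the quasi-likelihood test with no covariate and Benjamini-Hochberg adjustment. DESeq2 1.42.0 was an alternative. The edgeR fit was tested on simulated data. Within a group, libraries differed by more than counting error (chi-square over degrees of freedom 4.35 to 15.0 per pair), so each counted as 1 replicate. Symbols matched 52081 of 55414 identifiers, and exon lengths are those of GENCODE's GRCm38 annotation. Exact permutation tests compared mean log2 CPM, two-sided. The channels and gene lists were chosen with earlier results of these data known. Genes of the lists are named where the unadjusted p was under 0.05 or where they were among the 5 most abundant of a pathway list or the most abundant of a marker list (nociceptor, pan-neuronal, glia, macrophage, connective tissue, endothelium, blood, muscle, spinal cord, keratinocyte). Other assays of the study were not analysed here. Some genes that this rule names are not reported here.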

Additional observations from a re-analysis of the deposited data

Results flagged for a closer look

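In groups of 5 libraries, 4 of 60 comparisons had a library far from the rest, where chance gives about 1 in 20. *Trpv2* was at 57.5 CPM in *WD1* cKO embryo 3, below the 62.1 to 63.7 CPM of the other 4 *WD1* cKO embryos but close to the lowest control libraries. *Kcna1* was at 34.5 CPM in control embryo 3, against 46.1 to 49.5 CPM in the other 4 control embryos. *Slc6a5* was at 4.66 CPM in control embryo 3, against 0 to 0.146 CPM in the other control embryos, and at 0.364 CPM in *WD1* cKO embryo 3, where the remaining 4 held 0 to 0.102 CPM.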

How the results depend on the processing

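The counts of called TRP channels, other TRP genes, regulators and other temperature transducers, each 0, stayed 0 under all 19 alternatives, 16 planned and 3 chosen after seeing the data (embryos 1 to 3 only, embryos 4 and 5 only, a term for numbers 4 and 5). The lowest adjusted p of a TRP channel over these was 0.630. *Dach1* kept its direction and its call, at -0.95 to -0.89 with 1 library left out. The median of the 9 channels ranged from -0.05 to 0.02 with 1 library left out. Over all genes tested, 7 were called, against 19 by DESeq2's Wald test, 11 with the term for numbers 4 and 5, 4 with *Xist* as a covariate and 3 to 6 with 1 library left out. With embryos 1 to 3 only, or embryos 4 and 5 only, 3 were called, from fewer samples.

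With the replicate number as a block (replicate block), 8 genes were called and the median of the channels was -0.02. Deviations of same-numbered libraries correlated at 0.33, 0.04, 0.32, 0.35 and 0.39 for numbers 1 to 5, and embryos 2 and 4 of the control group correlated best with another number, so the numbers were not taken as pairs. An edgeR quasi-likelihood F test over the 5 numbers had been planned for use only if each such correlation passed 0.1, which that of number 2 did not. It gave an adjusted p under 0.05 for 524 of 17490 genes and 1 of 9 channels, *Trpm8* (adjusted p = 0.00799, with *Trpv1* at 0.0573), and is not used as a result. The block did not end the call of *Dach1*. It made none among the TRP channels, other TRP genes, regulators and other temperature transducers.

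The log2 fold changes of 14 single genes changed sign under 1 alternative or more, none with an adjusted p under 0.05. The median over the TRP channels, -0.03 in the main fit, also changed sign. This median was 0.02 without control embryo 4 and 0.01 without *WD1* cKO embryo 2. The cause of these changes was not tested. With *Xist* as a covariate, the log2 fold change was -0.00 for *Trpv2*, 0.03 for *Trpa1*, 0.00 for *Scn10a*, -0.03 for *Kcnk10* and 0.07 for *Cdh5*. With embryos 4 and 5 only, it was -0.03 for *Trpm8*, -0.04 for *Trpm2*, 0.25 for *Trpc5*, -0.11 for *Prkca* and -0.08 for *Kcnk10*. With embryos 1 to 3 only, it was 0.04 for *Gnaq*, 0.07 for *Scn10a* and 0.04 for *Cdh5*. Scaling to pan-neuronal genes gave 0.02 for *Gnaq*, 0.01 for *Scn10a* and 0.01 for *Cdh5*, no filter gave 0.00 for *Gnaq*, and DESeq2's size factors and Wald test each gave -0.00 for *Kcnk10*.

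With 1 library left out, log2 fold changes that changed sign ranged from -0.15 to 0.01 for *Trpv1*, -0.00 to 0.04 for *Trpv2*, -0.39 to 0.19 for *Trpa1*, -0.05 to 0.26 for *Trpm8*, -0.01 to 0.08 for *Trpm2* and -0.06 to 0.02 for *Trpc1*. The ranges were -0.04 to 0.07 for *Prkca*, -0.03 to 0.02 for *Gnaq*, -0.06 to 0.03 for *Scn10a*, -0.04 to 0.02 for *Kcnk10*, -0.02 to 0.11 for *Kcna1*, -0.10 to 0.07 for *Mrc1* and -0.10 to 0.06 for *Cdh5*. Depth limits *Trpa1* and *Trpc5* most, with as few as 6 and 11 counts in a library.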
